A study of Mus musculus with 6 samples.

Results

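The levels of 50 genes of DNA repair and of the Fanconi anaemia pathway were followed in embryonic mouse forebrain that carried a single working copy of Dyrk1a. They were taken by symbol from a given list that covers homologous recombination, end resection, damage checkpoints, the Fanconi pathway, mismatch repair, single-strand break repair, end joining and the marking of broken chromatin. All 50 were found among the 33084 Ensembl genes of the count table, and all 50 were among the 19403 genes with enough counts to be tested. The comparison was between 2 groups of 3 libraries, each from forebrain dissected at embryonic day 15.5: Dyrk1a+/- heterozygotes, in which one allele of the kinase gene is inactive, and wild-type (wt) controls. Each library is called a biological replicate in its label, which names no litter, sex or pooling and does not say which part of Dyrk1a was inactivated or in which strain. Where nothing more is stated, p-values measure the spread between these libraries.

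Cells that copy their genome meet broken and stalled replication forks, and homologous recombination repairs these from the sister chromatid. The MRN complex and CtIP trim the broken end, BRCA1 with BARD1, PALB2 and BRCA2 prepare the single-stranded DNA for strand exchange, and the Fanconi core complex ubiquitinates FANCD2 and FANCI to open the repair of crosslinked strands. End joining seals breaks without a template and is available outside S phase and in neurons after their last division. Many recombination and Fanconi genes are transcribed mainly in cycling cells, in the forebrain the progenitors of the ventricular zones. DYRK1A, the kinase of the mutated gene, phosphorylates LIN52 and so promotes assembly of the DREAM complex, which represses cell cycle genes in cells that leave the cycle.

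The repair genes were slightly higher in heterozygotes, as a broad and small shift in which no member passed the test. Of the 50 genes, 49 lay above 0 on the log2 fold change scale (heterozygote minus wt, 0 meaning equal levels), and their median was 0.17, against 51.2% of all tested genes above 0 and a median of 0.0048 over all of them. The members were chosen with earlier results of these data known. Measured in the same libraries, they are not 50 independent observations, and this share was not tested. By edgeR's quasi-likelihood test 0 of the 50 passed a Benjamini-Hochberg adjusted p of 0.05, where 2 of all genes did, 0.0103% of those tested. DESeq2, another count test, also called 0 of the 50, against 0.197% of the 15262 genes to which it gave an adjusted p. Its unadjusted p was under 0.05 in 9 members (18%), against 5.82% of all tested genes. At an unadjusted edgeR p under 0.05 there were 9 members, all higher in heterozygotes, which is 18% of the 50, while 7.88% of all tested genes reached that p, 3.27% higher and 4.61% lower. The count changed with single libraries, and that over all genes did not always change in the same direction. Leaving out wt replicate 1 gave 3 members (6%, against 4.11% of all genes), heterozygote replicate 3 gave 4 (8%, against 4.25%) and heterozygote replicate 2 gave 14 (28%, against 8.92%). In these the 2 counts moved alike. They moved apart without wt replicate 2 (10 members, 20%, against 6.18%). The same held without wt replicate 3 (8, 16%, against 10.5%) and heterozygote replicate 1 (8, 16%, against 7.98%). All 3 heterozygotes lay above all 3 wt libraries for 9 members, again 18%, and no member had the opposite order. Over all genes 6.53% were higher without overlap and 7.49% lower. The log2 fold changes ran from -0.02 for Xrcc4 to 0.42 for Rad54b, and the 95% intervals of 42 members lay wholly between 1.5-fold lower and 1.5-fold higher. Leaving out 1 library moved the log2 fold change by over 1.5 times, or turned it, in 35 members. It did not in the other 15, namely Brca1, Brca2, Rad54b, Xrcc2, Xrcc3, Rbbp8, Mre11a, Nbn, Fanca, Brip1, Msh6, Parp1, Xrcc1, Xrcc5 and Mdc1. Exon bases were shared with another counted gene in 21 members, in 4 of them on the same strand, and the strand setting of the counting is not stated, so such reads may have been split or left out.

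**Figure D1:**
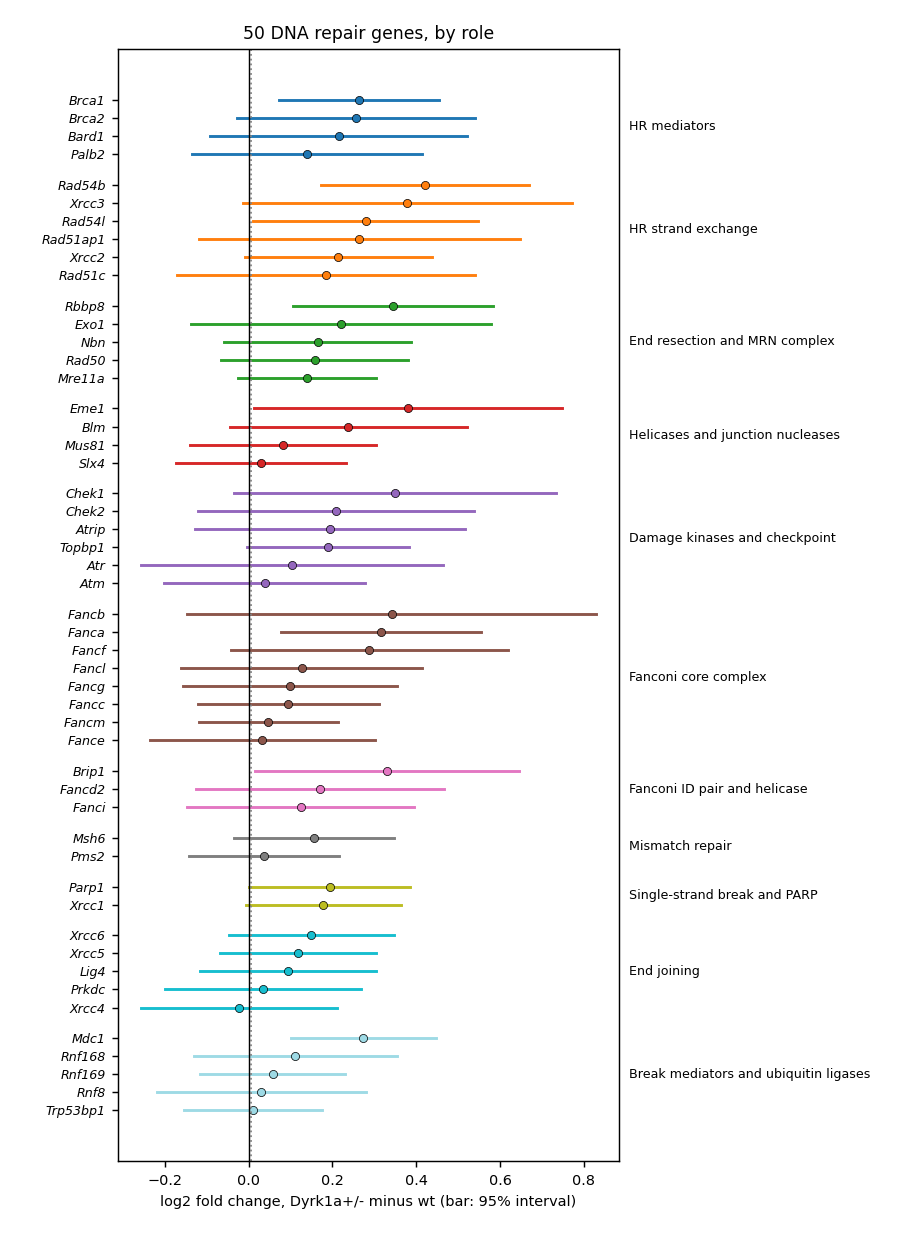
Log2 fold change, Dyrk1a+/- minus wt, of the 50 genes grouped by role, with 95% intervals (bars) from edgeR's quasi-likelihood fit; the dotted line is the median of all tested genes. Nearly every point lies right of 0, from -0.02 for Xrcc4 to 0.42 for Rad54b, and most intervals reach across 0.

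Added up, the 50 genes took 2511, 2506 and 2636 CPM (counts scaled to a common effective library size) in the heterozygotes, against 2355, 2372 and 2334 CPM in wt. The groups did not overlap in this sum. Totals ran from 18699434 to 25012356 counts in the heterozygotes and from 25270710 to 32865708 in wt, and the least covered member, Xrcc3, still had 505 counts over the 6 libraries. Heterozygote replicate 2 and wt replicate 3 stood apart from the other libraries on the first principal component, and held 40290 and 44500 CPM of the non-coding RNAs 7SK, Rmrp and Rpph1, against 25590 to 30180 CPM in the 4 others. Because this split holds a library of each genotype, the member counts were also taken without it: in the 4 other libraries alone 45 of 50 members were higher and 17 (34%) had an unadjusted edgeR p under 0.05, where 12.9% of all genes did, more than over the 6 libraries. Dyrk1a itself had 149, 147 and 158 CPM in heterozygotes, against 177, 186 and 160 CPM in wt (log2 fold change -0.20, SE 0.079; edgeR, Benjamini-Hochberg adjusted p = 0.59). Its groups did not overlap. Since the inactivated stretch is not stated, these reads may come partly from outside it and then check the genotype poorly. The forebrain factor Emx1 was at 20.2 to 34.2 CPM and the hindbrain gene Hoxb4 at 0 to 0.0483 CPM over all libraries.

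Promoters were read for the letters of known cell cycle sites, since the genes leaned the same way. RefSeq promoters on GRCm38.p6, from 250 bases before to 50 after the start, were on hand for 42 of the 50 genes, 45 promoters in all. The E2F letters TTTCCCGC, TTTCGCGC, TTTGCCGC or TTTGGCGC, on either strand, were in 10 of the 45 (22.2%), which belong to 9 genes, against 2.27% of 32841 promoters of all genes and 40% of 35 promoters of a replication list. They were in 5.88% of 119 promoters of DNA repair genes outside the 50 and in 8.82% of promoters of a G2 and M phase list. The promoters of all genes were not limited to tested genes, and the sets were not matched for GC content. The CHR letters TTTGAA, a site typical of G2 and M phase genes, were in 4 of the 45 (8.89%), against 17.9% of all promoters and 79.4% of 34 promoters of a G2 and M phase list. CCAAT, the box bound by NF-Y, was in 57.8% of the 45 and in 37.4% of all promoters. The palindromic motif at which DYRK1A has been found on chromatin was in 1 of the 45, that of Mre11a, and in 0.466% of all promoters. The 9 genes with E2F letters (Bard1, Brca2, Chek2, Fancg, Mdc1, Msh6, Rad51c, Topbp1 and Xrcc6) had log2 fold changes of 0.10 to 0.27 with a median of 0.19. The 33 genes with a promoter entry and none of these letters had a median of 0.13 and ran from -0.02 to 0.38. A match of letters is not evidence of binding, and the difference between these medians was not tested. The 250 bases before the start are shown for 4 of the 9 genes, 2 mediators of recombination, a checkpoint activator and a break scaffold, on the strand of the gene, with E2F and CHR letters in capitals.
Mdc1 (chr17:35841248-35841497, plus strand): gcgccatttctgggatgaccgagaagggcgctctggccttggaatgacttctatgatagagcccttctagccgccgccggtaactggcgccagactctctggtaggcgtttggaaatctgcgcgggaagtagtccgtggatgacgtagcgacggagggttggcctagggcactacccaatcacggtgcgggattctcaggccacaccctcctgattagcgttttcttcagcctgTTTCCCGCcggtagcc
Brca2 (chr5:150522371-150522620, plus strand): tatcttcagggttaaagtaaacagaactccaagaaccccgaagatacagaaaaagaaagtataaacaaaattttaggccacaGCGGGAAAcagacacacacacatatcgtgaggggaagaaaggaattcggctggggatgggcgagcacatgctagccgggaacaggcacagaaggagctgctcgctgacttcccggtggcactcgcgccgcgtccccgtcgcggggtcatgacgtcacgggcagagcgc
Topbp1 (chr9:103305077-103305326, plus strand): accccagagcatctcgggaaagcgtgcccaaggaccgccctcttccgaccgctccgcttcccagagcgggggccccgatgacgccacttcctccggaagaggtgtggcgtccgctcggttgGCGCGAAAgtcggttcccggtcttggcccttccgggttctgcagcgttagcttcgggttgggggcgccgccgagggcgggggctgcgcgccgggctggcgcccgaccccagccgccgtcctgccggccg
Bard1 (chr1:71102973-71103222, minus strand): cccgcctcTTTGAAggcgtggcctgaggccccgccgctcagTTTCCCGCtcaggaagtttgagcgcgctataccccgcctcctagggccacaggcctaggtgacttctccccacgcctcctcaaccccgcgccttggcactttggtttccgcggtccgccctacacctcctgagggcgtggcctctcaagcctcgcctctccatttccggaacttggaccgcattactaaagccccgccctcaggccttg
The E2F letters begin 16 bases before the start in Mdc1, 168 in Brca2, 129 in Topbp1 and 209 in Bard1.

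Among the mediators of recombination, all 4 genes were higher in heterozygotes (median 0.24 on the log2 scale, 0.142 without heterozygote replicate 3). Brca1 (ENSMUSG00000017146, GRCm38 chromosome 11, 101488764 to 101551955, minus strand), the ubiquitin ligase that commits breaks to recombination, had 41.0, 40.2 and 45.5 CPM in heterozygotes, against 33.2, 36.6 and 35.8 CPM in wt. Every heterozygote lay above every wt library, with a log2 fold change of 0.26 (SE 0.084; edgeR, unadjusted p = 0.0121, Benjamini-Hochberg adjusted p = 0.526). Brca2, a mediator that acts on single-stranded DNA, had 57.0, 44.4 and 59.8 CPM in heterozygotes, against 47.2, 48.1 and 39.5 CPM in wt. Its groups overlapped through heterozygote replicate 2 (log2 fold change 0.26, SE 0.125; edgeR, unadjusted p = 0.0709, Benjamini-Hochberg adjusted p = 0.68). Both libraries of the split pair were below the 4 others. Within that pair Brca2 differed by 0.17 on the log2 scale and within the 4 others by 0.29. Bard1, the partner of BRCA1, had 19.1, 14.5 and 20.6 CPM in heterozygotes, against 15.8, 15.4 and 15.4 CPM in wt. Here wt was tight and heterozygote replicate 2 lay below all of it, so the difference was -0.09 within the pair and 0.35 in the 4 others. Palb2, the bridge from BRCA1 to BRCA2, had the highest p of the group (log2 fold change 0.14, 95% interval -0.13 to 0.41; edgeR, unadjusted p = 0.28).

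The strand exchange genes gave a median of 0.27 over 6 genes, all of them higher. Rad54b (ENSMUSG00000078773, chromosome 4, 11558922 to 11615805, plus strand), a DNA translocase of recombination, had 17.4, 15.7 and 18.8 CPM in heterozygotes, against 12.3, 12.8 and 13.6 CPM in wt. This was the lowest p among the 50, with no overlap of the groups and a log2 fold change of 0.42 (SE 0.11; edgeR, unadjusted p = 0.0041, Benjamini-Hochberg adjusted p = 0.483), and it ranked 152nd by p among all tested genes. Fsbp, a gene within the same locus on the same strand, shares 2068 of the 5782 exon bases of Rad54b and had a log2 fold change of 0.27 (edgeR, unadjusted p = 0.133), so the reads of the shared bases cannot be assigned to either gene. Rad54l, the closely related translocase, had 26.0, 27.3 and 33.2 CPM in heterozygotes, against 21.8, 26.1 and 23.4 CPM in wt. Heterozygote replicate 1 lay just under the highest wt library (log2 fold change 0.28, SE 0.118; edgeR, unadjusted p = 0.0426, Benjamini-Hochberg adjusted p = 0.618), and without heterozygote replicate 3 the log2 fold change was 0.166. Lrrc41, on the opposite strand, overlaps 1184 exon bases of Rad54l and was at -0.06. Xrcc3, which acts in strand exchange, was the least counted member, with 3.57, 4.27 and 3.79 CPM in heterozygotes and 2.53, 3.37 and 3.08 CPM in wt. Its groups did not overlap, yet its interval was wide (log2 fold change 0.38, 95% interval -0.01 to 0.77; edgeR, unadjusted p = 0.0569). Xrcc2, of the same step, had 34.1, 28.4 and 33.1 CPM in heterozygotes, against 28.8, 28.0 and 25.6 CPM in wt (log2 fold change 0.21, SE 0.098; edgeR, unadjusted p = 0.0577). Rad51ap1 and Rad51c, also genes of strand exchange, had 0.26 and 0.18, with intervals of -0.12 to 0.65 and -0.17 to 0.54. Rad51ap1 was at 0.117 without wt replicate 3 and 0.433 without wt replicate 2, and Rad51c at 0.042 without heterozygote replicate 3 and 0.118 without wt replicate 3.

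**Figure D2:**
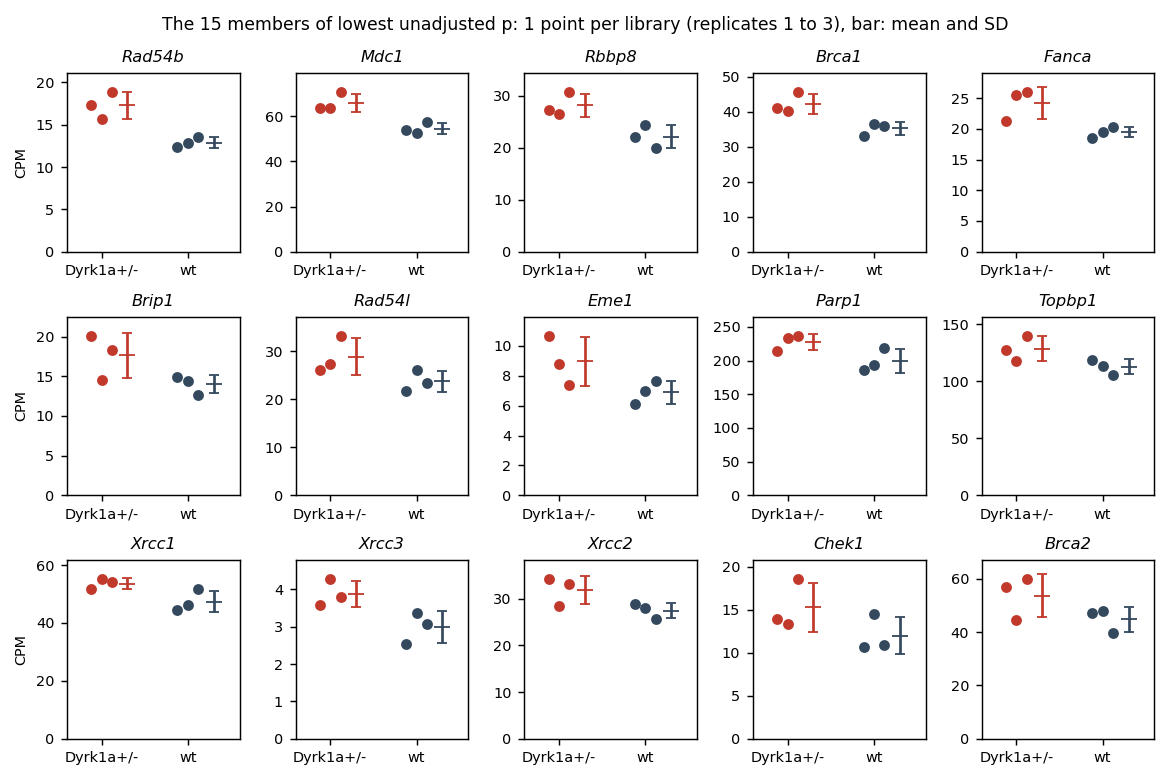
CPM in each library (points, replicates 1 to 3 from left to right) with the mean and SD (bars) for the 15 genes of lowest unadjusted p, Dyrk1a+/- left of wt, axes from 0. In Rad54b, Mdc1, Rbbp8, Brca1, Fanca, Xrcc1 and Xrcc3 the heterozygotes do not overlap wt, while in Eme1, Chek1 and Brca2 they do.

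End resection was higher in 5 of 5 genes, with a median of 0.16. Rbbp8 (ENSMUSG00000041238, chromosome 18), which encodes the resection factor CtIP, had 27.3, 26.5 and 30.7 CPM in heterozygotes, against 22.2, 24.4 and 19.99 CPM in wt. The groups did not overlap (log2 fold change 0.35, SE 0.105; edgeR, unadjusted p = 0.0098, Benjamini-Hochberg adjusted p = 0.512), and the difference was 0.41 within the split pair and 0.32 in the 4 others. The subunits of the MRN complex, which senses broken ends, differed little between genotypes: Mre11a had 0.14, Rad50 0.16 and the NBS1 gene Nbn 0.16. Mre11a was the steadiest of them, with 36.9, 37.5 and 38.2 CPM in heterozygotes and 33.5, 35.1 and 33.6 CPM in wt, no overlap, and an interval of -0.03 to 0.30. Exo1, the exonuclease of long-range resection, had 19.7, 16.5 and 20.9 CPM in heterozygotes, against 12.8, 17.8 and 18.4 CPM in wt. Its wt libraries spread more than the genotypes differed, and the difference in log2 CPM was -0.16 within the pair and 0.43 in the 4 others (log2 fold change over all 0.22, SE 0.158; 0.069 without wt replicate 1).

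Genes that dissolve or cut recombination intermediates were unequal. Eme1, the partner that activates the MUS81 nuclease, had 10.7, 8.81 and 7.42 CPM in heterozygotes, against 6.10, 6.98 and 7.63 CPM in wt (log2 fold change 0.38, SE 0.162; edgeR, unadjusted p = 0.0441, Benjamini-Hochberg adjusted p = 0.625). Heterozygote replicate 3 lay below wt replicate 3, the value was 0.237 without heterozygote replicate 1, and Lrrc59 and Mrpl27 overlap Eme1 on the opposite strand. Mus81 itself was at 40.9, 48.4 and 39.4 CPM in heterozygotes and 41.3, 38.0 and 42.3 CPM in wt, a log2 fold change of 0.08 (95% interval -0.14 to 0.30). Per exon length, Mus81 was 3.78 ± 0.708 times Eme1 in heterozygotes and 4.58 ± 0.567 times in wt (SD, n = 3 each; exact 2-sided permutation p = 0.2, where 3 against 3 cannot go below 0.1). Blm, the helicase that dissolves double Holliday junctions, had 37.3, 31.0 and 41.7 CPM in heterozygotes, against 29.7, 34.8 and 28.7 CPM in wt, with overlap (log2 fold change 0.24, SE 0.125; 0.135 without heterozygote replicate 3). The nuclease scaffold Slx4 was near 0 (0.03, 95% interval -0.17 to 0.23).

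Checkpoint genes were higher in 6 of 6, with a median of 0.19 (0.092 without heterozygote replicate 3). An unadjusted edgeR p under 0.05 was reached by 0 of 6, against 7.88% of all tested genes. Topbp1, which switches on ATR, had 128, 118 and 140.0 CPM in heterozygotes, against 119, 114 and 106 CPM in wt. Heterozygote replicate 2 lay just below wt replicate 1 (log2 fold change 0.19, SE 0.085; edgeR, unadjusted p = 0.0533, Benjamini-Hochberg adjusted p = 0.642), and the value was 0.124 without heterozygote replicate 3. Chek1, the effector kinase of ATR, had 14.0, 13.4 and 18.5 CPM in heterozygotes, against 10.6, 14.5 and 10.9 CPM in wt, with a wide interval of -0.04 to 0.73 around 0.35 and a value of 0.189 without heterozygote replicate 3. The apical kinases were low in both libraries of the split pair. Atr had 131, 97.0 and 130 CPM in heterozygotes, against 123, 124 and 87.0 CPM in wt, lowest in heterozygote replicate 2 and wt replicate 3. Atm had 154, 131 and 147 CPM in heterozygotes, against 144, 155 and 121 CPM in wt, with the same libraries low. Averaged over both genotypes the split pair lay below the other libraries by -0.47 in Atr, -0.25 in Atm and -0.33 in Brca2 on the log2 scale. Both libraries of the pair were below the 4 others in 8 members (16%) and above them in 5 (10%), against 18.3% and 16.1% of all tested genes. Chek2 and Atrip, the effector kinase of ATM and the partner of ATR, had 0.21 and 0.19, each with an interval that crossed 0.

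In the Fanconi core complex all 8 genes had a positive log2 fold change, with a median of 0.11. Fanca (ENSMUSG00000032815, chromosome 8, 123268300 to 123318576, minus strand), a scaffold of the complex, had 21.2, 25.4 and 25.9 CPM in heterozygotes, against 18.6, 19.5 and 20.2 CPM in wt. No heterozygote fell into the wt range (log2 fold change 0.32, SE 0.105; edgeR, unadjusted p = 0.0152, Benjamini-Hochberg adjusted p = 0.529). Zfp276, which overlaps 920 exon bases of Fanca on the opposite strand, was at 0.05. Fancb and Fancf, a subunit of the catalytic module and an adaptor, had 0.34 and 0.29, and their intervals of -0.15 to 0.83 and -0.04 to 0.62 were among the widest. Fancb was at 0.182 without heterozygote replicate 3 and 0.545 without heterozygote replicate 2. Fancl, the ubiquitin ligase subunit, had 0.13, Fancg 0.10, Fancc 0.10 and the translocase gene Fancm 0.05. Fance, which contacts FANCD2, was the nearest to 0 in this role, with 15.8, 19.4 and 15.7 CPM in heterozygotes and 16.2, 15.8 and 17.8 CPM in wt (0.03, 95% interval -0.23 to 0.30). Without heterozygote replicate 2 its log2 fold change was -0.08.

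The substrates of the core complex showed the same lean. Fancd2 had 18.1, 18.6 and 22.3 CPM in heterozygotes, against 15.9, 20.2 and 16.4 CPM in wt, and its partner Fanci 17.6, 15.8 and 14.99 CPM in heterozygotes, against 16.4, 13.2 and 14.8 CPM in wt. Neither separated the genotypes, with log2 fold changes of 0.17 and 0.12. Their ratio per exon length was 0.896 ± 0.17 in heterozygotes and 0.876 ± 0.213 in wt (SD, n = 3 each; exact 2-sided permutation p = 0.8). Brip1, the helicase also called FANCJ, had 20.1, 14.5 and 18.3 CPM in heterozygotes, against 14.9, 14.4 and 12.7 CPM in wt. Heterozygote replicate 2 was within the wt range (log2 fold change 0.33, SE 0.139; edgeR, unadjusted p = 0.0421, Benjamini-Hochberg adjusted p = 0.617).

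Single-strand break repair was higher in both of its genes. Parp1, the sensor of single-strand breaks, had 214, 233 and 237 CPM in heterozygotes, against 186, 193 and 219 CPM in wt (log2 fold change 0.19, SE 0.085; edgeR, unadjusted p = 0.0495, Benjamini-Hochberg adjusted p = 0.633). Heterozygote replicate 1 lay just under wt replicate 3. Its scaffold partner Xrcc1 had 51.6, 55.1 and 54.2 CPM in heterozygotes, against 44.5, 46.1 and 51.6 CPM in wt. For Xrcc1, wt replicate 3 came level with the lowest heterozygote to 3 digits (log2 fold change 0.18, SE 0.081; edgeR, unadjusted p = 0.0562). In mismatch repair Msh6, which recognises the mismatch, had 0.16 (95% interval -0.03 to 0.35) and Pms2, a subunit of the MutL nuclease, 0.04 (-0.14 to 0.22).

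Of 5 end joining genes 4 were above 0, with a median of 0.09 (0.030 without heterozygote replicate 3). An unadjusted edgeR p under 0.05 was reached by 0 of 5, against 7.88% of all tested genes. The Ku subunits led: Xrcc6, Ku70, had 32.0, 33.2 and 31.7 CPM in heterozygotes, against 29.4, 26.7 and 31.2 CPM in wt (0.15, 95% interval -0.05 to 0.35), and Xrcc5, Ku80, had 0.12. Their ratio, Xrcc5 over Xrcc6 per exon length, was 1.70 ± 0.111 in heterozygotes and 1.74 ± 0.132 in wt (SD, n = 3 each; exact 2-sided permutation p = 0.7). Lig4, the ligase, had 0.09, and Prkdc, the DNA-dependent kinase, 0.03. Xrcc4, the ligase cofactor, was the only member below 0, at 14.8, 14.4 and 14.9 CPM in heterozygotes and 16.2, 14.6 and 14.0 CPM in wt (-0.02, 95% interval -0.26 to 0.21), and without wt replicate 1 it too was above 0 (0.041).

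Among 5 genes that mark broken chromatin and recruit repair, 1 had an unadjusted edgeR p under 0.05, against 7.88% of all tested genes. In groups this small such a count says little. Mdc1 (ENSMUSG00000061607, chromosome 17, 35841515 to 35859670, plus strand), the scaffold that binds phosphorylated histone H2AX, had 63.6, 63.8 and 70.6 CPM in heterozygotes, against 53.8, 52.6 and 57.2 CPM in wt. The groups were well apart (log2 fold change 0.27, SE 0.076, 95% interval 0.10 to 0.45; edgeR, unadjusted p = 0.006, Benjamini-Hochberg adjusted p = 0.488). Trp53bp1, the gene of 53BP1 that steers breaks towards end joining, had 554, 609 and 578 CPM in heterozygotes, against 579, 548 and 601 CPM in wt. Its interval of -0.15 to 0.18 around 0.01 was among the narrowest. The ubiquitin ligases of the same cascade, Rnf168, Rnf169 and Rnf8, had 0.11, 0.06 and 0.03, with upper bounds of 0.35, 0.23 and 0.28. Gm28043 shares 1542 exon bases with Rnf8 on the same strand.

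Per exon length the genes spanned a wide range. As CPM divided by exon length in kilobases (RPKM), the highest were Parp1, at 43.1 ± 2.26 in heterozygotes and 37.7 ± 3.28 in wt, and Trp53bp1, at 41.0 ± 1.96 in heterozygotes and 40.7 ± 1.88 in wt (SD, n = 3 each). These neighbours overlapped within their spread in both genotypes. Next came Msh6 at 20.1 ± 1.65 RPKM in heterozygotes and 18.1 ± 1.03 in wt, then Atm at 13.9 ± 1.17 in heterozygotes and 13.6 ± 1.67 in wt. Mus81 was at 12.0 ± 1.35 in heterozygotes and 11.4 ± 0.628 in wt, level with Xrcc5 within the spread. Atrip had the lowest mean in both genotypes, at 1.13 ± 0.184 RPKM in heterozygotes, level with Rnf8 within the spread, and 0.985 ± 0.0158 in wt. On the same strand Atrip shares 1147 of 7152 exon bases with Trex1, and Rnf8 shares 1542 of 11703 with Gm28043. Reads of these bases may be missing from either value. Rnf8 was at 1.15 ± 0.0963 in heterozygotes and 1.13 ± 0.0579 in wt, and Xrcc3 at 1.41 ± 0.129 in heterozygotes and 1.09 ± 0.155 in wt. Xrcc3 was above Rnf8 in heterozygotes, while in wt the 2 were level within the spread. In wt replicate 2 Xrcc3 was the higher (1.23 and 1.06 RPKM). Rad51c was at 1.45 ± 0.244 in heterozygotes and 1.27 ± 0.105 in wt, and Palb2 at 1.49 ± 0.0947 in heterozygotes and 1.35 ± 0.131 in wt. The median member, at 4.51 RPKM over all libraries, was near the median of all tested genes, 4.44 RPKM, and 26 of the 50 were above it. Ratios between complex partners, per exon length, overlapped between the genotypes. Brca1 was 1.42, 1.84 and 1.47 times Bard1 in heterozygotes and 1.39, 1.58 and 1.54 times in wt. Mre11a was 1.11, 1.34 and 1.27 times Rad50 in heterozygotes and 1.20, 1.23 and 1.33 times in wt, and Nbn 1.40, 1.56 and 1.53 times Rad50 in heterozygotes and 1.35, 1.53 and 1.59 times in wt.

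**Figure D3:**
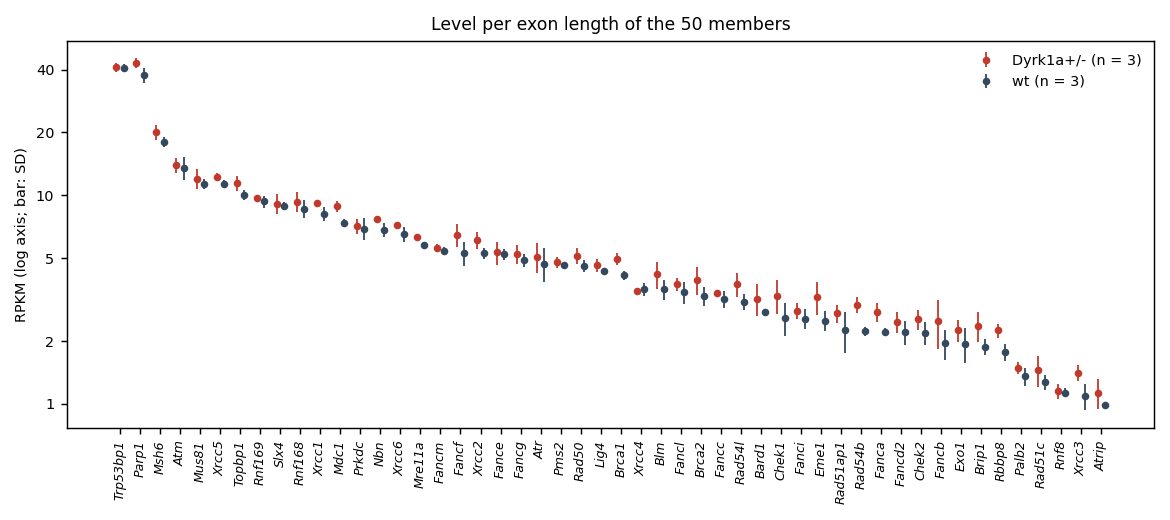
RPKM of the 50 genes (mean and SD of 3 libraries, log axis), Dyrk1a+/- left of wt in each gene, ordered by wt. Mean levels run from 0.985 RPKM for Atrip in wt to 43.1 RPKM for Parp1 in heterozygotes.

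Other DNA repair genes also leaned higher in heterozygotes. Of 121 tested genes of recombination, excision repair, end joining and damage bypass outside the 50, 100 were above 0 (median 0.10; the difference from the median of the 50 was not tested). None passed the adjusted p of edgeR or DESeq2 (0 of 121), and 17 had an unadjusted edgeR p under 0.05, all higher. Over all tested genes 7.88% reached that p, 3.27% higher and 4.61% lower. Lowest in p were Rpa2, a subunit of the single-strand binding protein RPA, with 30.4, 29.9 and 30.3 CPM in heterozygotes, against 22.8, 24.6 and 24.8 CPM in wt (0.33, SE 0.081), the polymerase gene Polq (0.32, SE 0.087), the uracil glycosylase gene Ung (0.39, SE 0.112) and Zgrf1 (0.21, SE 0.069). Of the 21 below 0, those of lowest p were Ercc2 (-0.11), Neil1 (-0.15), Mpg (-0.10) and Swsap1 (-0.10), genes of nucleotide excision, base excision and recombination, and their p was 0.305 or more by edgeR.

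**Figure D4:**
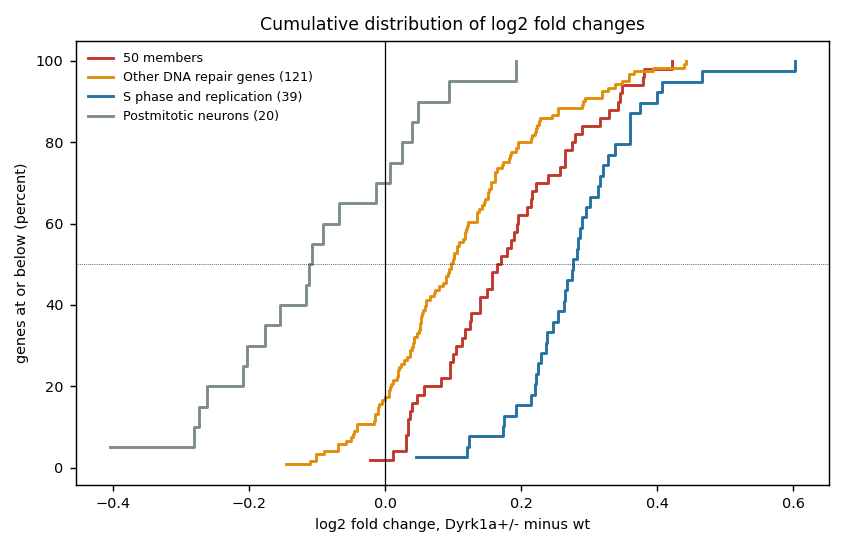
Cumulative share of genes against log2 fold change, Dyrk1a+/- minus wt, for the 50 members, other DNA repair genes, replication genes and neuronal genes. The members cross 50% at 0.17, between the other repair genes at 0.10 and the replication genes at 0.28, with the neuronal genes at -0.11.

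Markers of cycling cells moved with the repair genes. Of 39 genes of S phase and replication all 39 were above 0 (median 0.28, 28 at an unadjusted edgeR p under 0.05), and their summed level was 1600 to 1819 CPM in heterozygotes and 1354 to 1503 CPM in wt. Of 37 G2 and M phase genes all 37 were above 0 (median 0.35, 33 at that p), at 2312 to 2861 CPM in heterozygotes and 1846 to 2061 CPM in wt. Over all tested genes 7.88% reached that unadjusted p, 3.27% higher and 4.61% lower. By edgeR 0 genes of either list passed the adjusted p. DESeq2 passed 4 of the 37 and 0 of the 39. The cycling lists did not overlap between genotypes in summed level. Intermediate progenitor markers were above 0 in 10 of 10, at 422.6 to 504.2 CPM in heterozygotes and 350.6 to 395.6 CPM in wt. Apical progenitor markers were above 0 in 10 of 14, at 1576 to 1724 CPM in heterozygotes and 1464 to 1647 CPM in wt. By count of genes, markers of differentiated and non-neural cells leaned the other way. Neuronal markers were below 0 in 14 of 20 (6958 to 7189 CPM in heterozygotes, 7311 to 7801 CPM in wt), and meningeal ones in 8 of 10 (429.6 to 476.5 CPM in heterozygotes, 508.5 to 596.5 CPM in wt), among them Ptgds, 1 of the 2 genes that passed the adjusted p of edgeR. Microglial markers were below 0 in 9 of 10 (65.7 to 78.9 CPM in heterozygotes, 77.2 to 80.6 CPM in wt), endothelial ones in 7 of 10 (260.5 to 296.3 CPM in heterozygotes, 278.8 to 307.3 CPM in wt) and erythroid ones in 7 of 9 (585.7 to 744.7 CPM in heterozygotes, 751.7 to 949.7 CPM in wt). The endothelial median was only -0.04 on the log2 scale, and the erythroid genes ran from -0.69 to 2.62. The part of any of these lists in the difference of the repair genes was not tested. In bulk RNA, more cells of a type and more RNA per cell cannot be told apart.

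Library by library, heterozygote replicate 3 was highest in both kinds of list. The mean log2 CPM of the 50 genes, centred over the libraries, was 0.0764, 0.0336 and 0.153 in the heterozygotes, against -0.103, -0.0457 and -0.114 in wt. That of the S phase list was 0.0636, 0.117 and 0.237 in heterozygotes, against -0.219, -0.123 and -0.0749 in wt. The order differed within genotypes: wt replicate 3 was the lowest wt library for repair genes and the highest for S phase genes, and heterozygote replicate 2 was the lowest heterozygote for repair genes but not for S phase genes. Strand exchange genes had 0.069, 0.092 and 0.272 in heterozygotes and -0.185, -0.0272 and -0.221 in wt, and end joining genes 0.0355, -0.0105 and 0.0896 in heterozygotes and 0.00282, -0.0462 and -0.0713 in wt. Within the split pair of libraries the 50 genes differed by 0.148 and within the 4 others by 0.189.

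**Figure D5:**
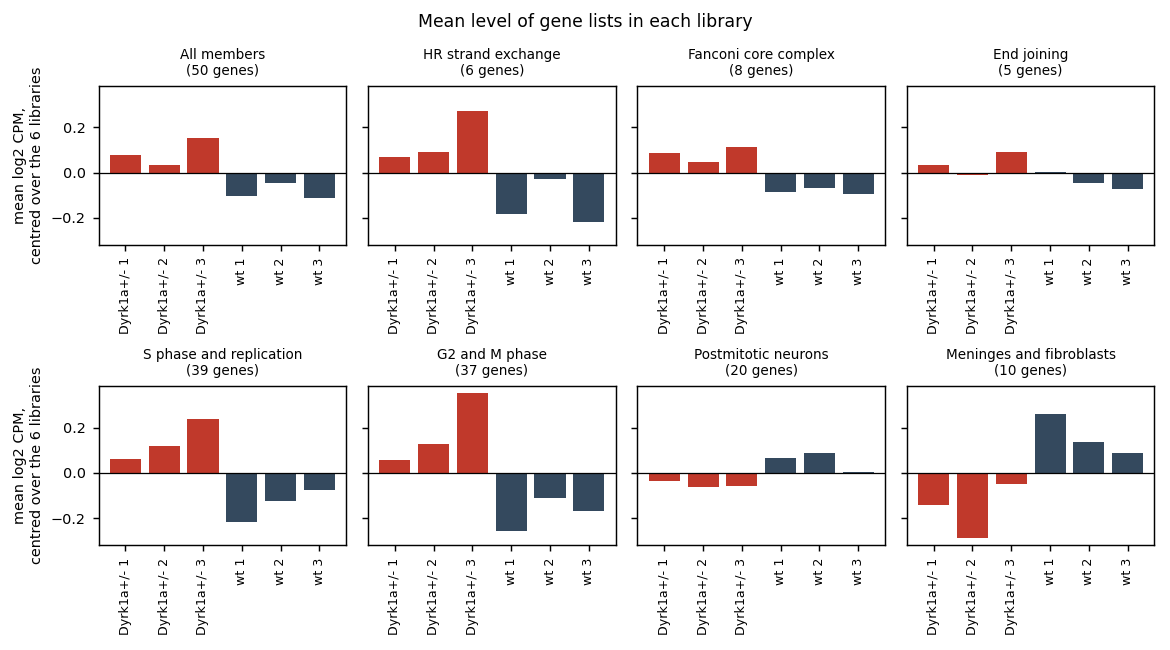
Mean log2 CPM of 8 gene lists in each library, centred over the 6 libraries, Dyrk1a+/- replicates left of wt. For the 50 members every heterozygote is above every wt library, by a smaller step than for the S phase and the G2 and M phase lists, and the end joining genes overlap.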

How the data were processed

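The authors deposited raw counts per Ensembl gene, 1 column per library. The submitters' processing notes name bcl2fastq 2.17.1.14, HISAT2, SAMtools 1.9 and HTSeq 0.9.1 and the build GRCm38/mm10; no annotation release or strand setting is stated. The labels name a stranded total-RNA kit and also polyadenylated RNA. Symbols, exon lengths and overlaps came from GENCODE M21 (32888 of 33084 identifiers matched). Genes were kept by filterByExpr, scaled by TMM and fitted in R 4.3.3 with edgeR 4.0.16 by its quasi-likelihood method, genotype as the only term, adjusted by Benjamini-Hochberg over all 19403 genes; DESeq2 1.42.0 was run beside it. Intervals (95%) and SEs come from the F statistic, log2 CPM used a prior count of 2. Reads are not independent molecules. Between any 2 libraries of a genotype or across genotypes the counts differed beyond sampling noise (chi-square over degrees of freedom 4.55 to 29.7), so none is a copy of another; this does not show that they come from separate animals. The fit was tested on simulated data. The members and lists were chosen with earlier results of these data known. Chosen for description were Dyrk1a, the 15 members of lowest p, the lowest and highest p in each role, 4 higher and 4 lower genes of the other repair list, the 5 highest and 5 lowest levels and complex partners. Not all of these are given with a p, and remaining members are given by value. Alternatives were other size factors, DESeq2, no filter, a replicate block, a term for the split pair, the 4 other libraries, and each library left out.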

Additional observations from a re-analysis of the deposited data

How the results depend on the processing

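No member passed an adjusted p of 0.05 under any alternative (lowest 0.119), and 40 of 50 members were above 0 in all of them. The count of members above 0 was 49 with other size factors, DESeq2, the block or the pair term, 48 without a filter, 45 in the 4 other libraries, and 43 to 50 with 1 library left out. The members' median was 0.156 to 0.179 in the first 6 alternatives and 0.137 to 0.195 with 1 library left out. Members at an unadjusted p under 0.05 were 20 with the pair term (40%, against 15.7% of all genes), 17 in the 4 other libraries (34%, against 12.9%) and 5 with the replicate block (10%, against 5.72%), and 3 to 14 with 1 library left out. All genes past the adjusted p were 30 by DESeq2, 4 without a filter, 6 with the pair term, 6 in the 4 other libraries, 0 with the replicate block (1110 at an unadjusted p under 0.05 by edgeR) and 0 to 5 with 1 library left out (812 to 2072 at an unadjusted p under 0.05 by edgeR). Deviations of same-numbered libraries from their group means had correlations of 0.201, -0.325 and -0.165. For heterozygote replicate 2 and wt replicate 3, the split pair, the correlation was 0.452. Because that split enters all of these values, they cannot decide whether the numbers pair the libraries. Directions turned in 10 members. In the 4 other libraries Slx4 was at -0.029, Fance at -0.023, Pms2 at -0.029 and Rnf8 at -0.011, and with no filter Trp53bp1 was at -0.001. With 1 library left out the log2 fold change ran from -0.015 to 0.138 for Mus81, -0.056 to 0.101 for Slx4, -0.056 to 0.114 for Atm, -0.045 to 0.235 for Atr, -0.077 to 0.086 for Fance, -0.014 to 0.079 for Pms2, -0.067 to 0.041 for Xrcc4, -0.062 to 0.099 for Prkdc, -0.027 to 0.044 for Trp53bp1 and -0.028 to 0.090 for Rnf8. The causes were not tested.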
